A study of Drosophila melanogaster with 3 samples.

Results

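Cytochrome P450 genes, the heme enzyme family that oxidises toxins, fatty acids and steroids, were followed in syncytial Drosophila embryos after laser wounding. The members are the genes whose symbol is Cyp, a family number and a letter, which leaves out cyclins and cyclophilins. Of the 85 such genes in the RefSeq gene table, 58 had a cDNA probe that names them alone, and all 58 were tested, over 64 probes, among 10183 genes and probes in all. They made up 29 genes of clan 3, 21 of clan 4, 5 of the mitochondrial clan and 3 of clan 2. The steroid-making P450s spo, phantom (phm, listed as phtm in the gene table) and shd carry other names and are described apart from the 58.

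Laser-wounded embryos were compared with embryos handled in the same way but left unwounded. Both were collected at 0 to 1 h of age, dechorionated by hand, kept in halocarbon oil and frozen after 30 min, and both carried the actin reporter sGMCA. The 3 arrays, 1 for each of the experiments labelled 3, 4 and 5, form a single group, and every array carried wounded RNA in Cy3 and unwounded RNA in Cy5. The series' design text calls the experiments independent, and the study's methods speak of more replicates than the 3 arrays analysed here. P-values rest on the spread between these 3 arrays, with the variance of each feature drawn toward a value shared by all features. Values are log2 ratios of wounded over unwounded, given as mean ± SD (n = 3). A gene was called when limma, a linear model with moderated variances fitted over all 10183 features, gave a Benjamini-Hochberg adjusted p under 0.05 and the change was at least 1.5-fold.

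The sign is the likely one, as the file does not state it. It was set by genes whose direction the study names: all 12 tested raised genes were above 0, and all 11 tested lowered genes, with P450s left out, were below 0. That rests on the study's own lists from these samples. A plain Cy5 over Cy3 ratio would turn every direction given here around. Dyes were not exchanged on any array, so a dye effect of a gene and a change on wounding cannot be told apart. A ratio carries no level, so whether a P450 is abundant in the syncytial embryo cannot be read from these values, and neither can the embryo's own markers. RNA of whole embryos was pooled, and fewer nuclei that make a transcript cannot be told apart from less transcript per nucleus.

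P450s hold a heme iron through a cysteine and insert oxygen into their substrates. Those in the endoplasmic reticulum receive electrons from the reductase Cpr and from cytochrome b5, and the mitochondrial ones from ferredoxins. In insects, Cyp6, Cyp9 and Cyp28 enzymes of clan 3 are best known for breaking down insecticides and plant toxins, and many Cyp4 enzymes of clan 4 act on fatty acids and hydrocarbons. The Halloween P450s of clan 2 and the mitochondrial clan make the moulting hormone ecdysone. Most of these genes are studied in larvae and adults, where gut, fat body and Malpighian tubules carry high levels.

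Of the 58 P450 genes, 2 fell in wounded embryos, 0 rose and 56 were not called. Both that fell, Cyp6a19 and Cyp6a9, are Cyp6 genes of clan 3. Neither was called with arrays scaled to the same spread, in a test against a 1.5-fold change or with any 1 array left out, settings under which limma called 0 of all features. The same held for the 4 genes outside the 58 that were called and are described further on, spo, FeCH, Fdx2 and Hr96. This is 3.45% of the members, against 2.33% of all features, 1.68% of which were called lower and 0.648% higher. With the adjusted p under 0.05 and no minimum fold, Cyp6a20 was added, and all 3 genes were lower. Over all features 4.03% passed this rule, 3.16% lower and 0.864% higher. The share of P450 genes called was thus not far from that of all features, but it rests on 2 neighbouring genes. An unadjusted limma p under 0.05 was found for 8 of the 58 genes and for 2543 of the 10183 features. The median size of the mean was 0.088 for the members and 0.125 over all features. The members' median was -0.0061, with 29 genes below 0 and 29 above, beside a median of 0.0014 over all features. The sign was the same on all 3 arrays for 21 of the 58 genes (36.2%), of which 14 were below 0, and for 50.3% of all features.

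**Figure D1:**
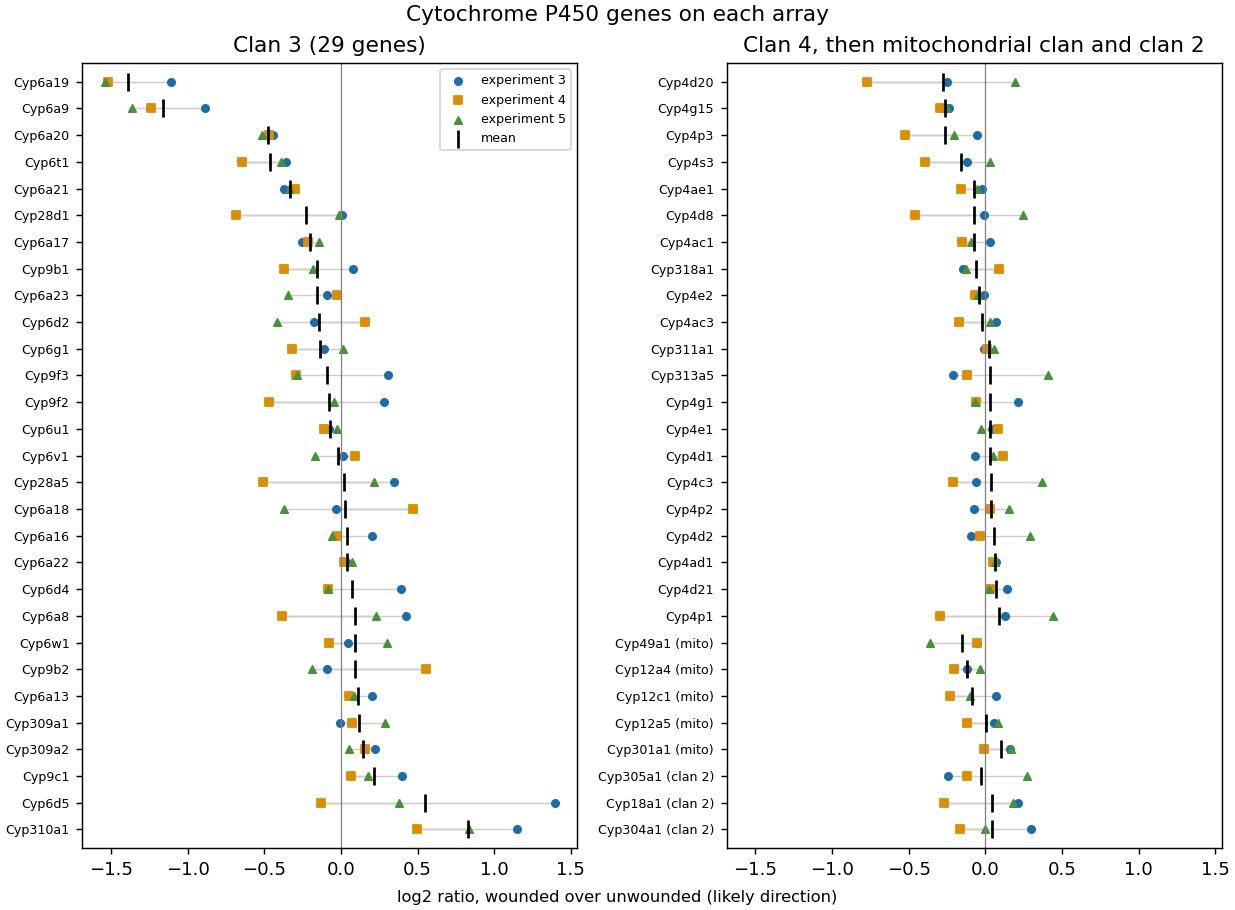
Log2 ratio of wounded over unwounded (x axis, likely direction) for each of the 58 P450 genes, with 1 symbol per experiment and a bar at the mean. Clan 3, on the left, spans means of -1.39 to 0.83, and the 3 other clans, on the right, stay between -0.28 and 0.11.

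The clans differed in how far their members spread. In clan 3 the means ran from -1.39 to 0.83, and 7 of 29 genes were at least 0.3 in size. In clan 4 they ran from -0.28 to 0.09, in the mitochondrial clan from -0.15 to 0.11 and in clan 2 from -0.030 to 0.04, and 0 of these 29 genes reached 0.3. Over all features 15.7% did. The medians were close to 0 in each clan, at -0.020 in clan 3, 0.021 in clan 4, -0.09 in the mitochondrial clan and 0.04 in clan 2. The difference in spread between clans was not tested. Of the 7 clan 3 genes of at least 0.3 in size, 4 lay in a single run of 8 tested clan 3 genes, described next. The count for clan 3, and its lowest mean, thus rest in large part on that run. The other 3, Cyp310a1, Cyp6d5 and Cyp6t1, lay outside it. Without that run, the remaining 50 P450 genes had means with an SD of 0.19, against 0.30 for all 58 and 0.26 for all features. These SDs are over all clans and do not address the difference between clans. The run was singled out after the values were seen, so a smaller SD without it is no evidence about the run.

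Cyp6a19 had the lowest mean of the family, 10th from the lowest of all 10183 features. Its log2 ratio was -1.11, -1.52 and -1.54 in experiments 3, 4 and 5, or -1.39 ± 0.24 (2.62-fold lower; 95% interval -1.68 to -1.11; limma adjusted p = 0.0365). Cyp6a9 had -0.88, -1.24 and -1.36, or -1.16 ± 0.25 (2.24-fold lower; 95% interval -1.45 to -0.87; limma adjusted p = 0.0365). Both genes stood below 0 on each array, with the smallest fall in experiment 3. Cyp6a19 minus Cyp6a9 was -0.23, -0.29 and -0.18 on the 3 arrays, a mean difference of -0.23 ± 0.05. Both are among the genes the study names as lowered, so these falls are no independent evidence of direction.

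These genes lie next to each other, inside a run of 8 tested Cyp6a genes that follow one another on the chromosome as Cyp6a22, Cyp6a17, Cyp6a23, Cyp6a19, Cyp6a9, Cyp6a20, Cyp6a21 and Cyp6a8. Runs were taken from the RefSeq gene order, as P450 genes with at most 1 other gene between them, and this run was singled out after the values were seen. Cyp6a20, a gene that affects male aggression in adult flies, came next after Cyp6a9, at -0.44, -0.47 and -0.52, or -0.48 ± 0.04 (limma adjusted p = 0.0373). It is 1.39-fold lower, under the 1.5-fold minimum, and so was not called. Cyp6a21 followed with -0.37, -0.30 and -0.34, or -0.33 ± 0.04 (limma adjusted p = 0.0612), and both of its probes were below 0 on every array, with means of -0.41 and -0.26. All 4 neighbours from Cyp6a19 to Cyp6a21 were thus below 0 on each of the 3 arrays. So were 2547 of all 10183 features, and these 4 were picked out by their values.

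On the other side of Cyp6a19 the ratios were smaller in size, and Cyp6a23 and Cyp6a17 were also below 0 on each array. Cyp6a23 had -0.09, -0.03 and -0.34, or -0.15 ± 0.17. Cyp6a17, known for a role in temperature preference, had -0.26, -0.22 and -0.14, or -0.20 ± 0.06. Cyp6a22 had 0.03, 0.02 and 0.07. None of the 3 was called, with limma adjusted p of 0.332, 0.147 and 0.695. At the far end Cyp6a8 did not hold a direction, at 0.43, -0.38 and 0.23. The step between neighbours was largest at Cyp6a19: Cyp6a19 minus Cyp6a23 was -1.02, -1.49 and -1.20 on the 3 arrays, a mean difference of -1.24 ± 0.24. On the other side, Cyp6a9 minus Cyp6a20 was -0.44, -0.76 and -0.84, a mean difference of -0.68 ± 0.21. The nearest tested genes outside the run were not called, with -0.14 ± 0.28 for U3-55K and 0.40 ± 0.06 for Pcf11 (limma adjusted p = 0.0493, under the minimum fold) on one side and 0.24 ± 0.19 for Kank and -0.12 ± 0.12 for Agps on the other. Differences between neighbours were not tested. With 3 arrays an exact sign-flip permutation test, two-sided, cannot go below p = 0.25, for these differences or for any single gene.

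**Figure D2:**
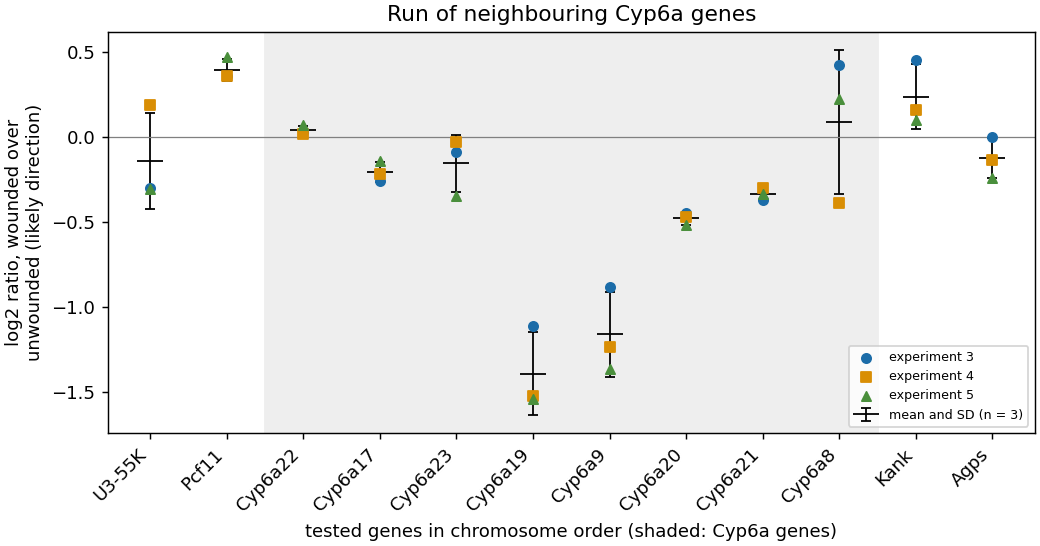
Log2 ratio of wounded over unwounded (y axis, likely direction) for the tested genes in and beside the run of Cyp6a genes, in chromosome order (x axis), with 1 symbol per experiment and bars for mean and SD (n = 3). The lowest values are those of Cyp6a19 and Cyp6a9, next come Cyp6a20 and Cyp6a21, and Cyp6a22 and Cyp6a8 at the ends of the run are near 0 on average.

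Cyp6a genes are close relatives, and a spotted cDNA clone can bind the RNA of a near copy. How much of the values of Cyp6a20 and Cyp6a21 comes from RNA of their neighbours, or the reverse, was not tested. Cyp6a genes outside the run lay near 0, with 0.11 ± 0.08 for Cyp6a13, 0.04 ± 0.14 for Cyp6a16 and 0.02 ± 0.42 for Cyp6a18. The other 9 runs with at least 2 tested members held 2 or 3 each, against 8 in the Cyp6a run. A range widens with more members, and the Cyp6a run was singled out by its values, so the ranges cannot be compared. Within the other 9 runs means differed by 0.35 at most, in Cyp4p2, Cyp4p1 and Cyp4p3, and by 0.011 at least, in Cyp9f3 and Cyp9f2.

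Among the 8 Cyp6 genes that are not Cyp6a, 0 were called, against 2.33% of all features. The sign was the same on all arrays for 2 of the 8, against 50.3% of all features. Cyp6t1 had -0.36, -0.64 and -0.39, or -0.46 ± 0.16 (limma adjusted p = 0.0599), below 0 on each array but not called. Cyp6d5 had the widest spread of the family, at 1.40, -0.13 and 0.38, so its mean of 0.55 ± 0.78 (limma adjusted p = 0.316) rests on experiment 3. Cyp6g1, known for DDT resistance when overexpressed, had -0.14 ± 0.17, and Cyp6u1, Cyp6v1, Cyp6d2, Cyp6d4 and Cyp6w1 lay between -0.15 and 0.09. For Cyp6v1 the 2 probes, a clone and a new amplification of it, gave the same mean of -0.02.

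In the opposite direction stood Cyp310a1, the highest mean of the family and 90th from the highest of all features. It had 1.15, 0.49 and 0.84 in experiments 3, 4 and 5, or 0.83 ± 0.33 (1.77-fold higher; 95% interval 0.47 to 1.18). Its limma adjusted p of 0.0501 is just outside the threshold, so it was not called, and with array weights or at an adjusted p under 0.10 it was. All 3 arrays were above 0, and experiment 4 was lowest. Most early zygotic genes, which mark the embryo's own transcription, moved the same way. Of 12 tested markers 11 were called higher, against 0.648% of all features. The medians of the 12 were 1.23, 0.70 and 1.12 in experiments 3, 4 and 5. The study names nullo and dpn of this list as raised in these samples, and such genes set the sign. The marker lists were also chosen with earlier results of these data known, so these counts are no independent evidence. Of 8 tested maternal markers 4 were called lower, against 1.68% of all features, at medians of -0.41, -0.45 and -0.41. Among those called are dhd and exu, which the study names as lowered in these samples. The maternal list was mixed, with 6 means below 0 and 2 above. Bcd had 0.16 ± 0.12 and was above 0 on each array, tor had 0.06 ± 0.11 and gcl -0.04 ± 0.09. Whether a difference in stage between wounded and unwounded embryos has a part in the P450 values was not tested.

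Other clan 3 families were close to 0 on average. Cyp9c1 was above 0 on each array, at 0.40, 0.07 and 0.18 (0.21 ± 0.17; limma adjusted p = 0.220), and Cyp9b1 was lowest of the 5 Cyp9 genes (-0.16 ± 0.23). Cyp9b2, Cyp9f2 and Cyp9f3 had -0.09 to 0.09. The neighbours Cyp309a1 and Cyp309a2 had 0.12 ± 0.15 and 0.14 ± 0.08. Cyp28d1 had 0.0069, -0.68 and -0.014, and Cyp28a5 0.35, -0.51 and 0.21, so both were clearly below 0 in experiment 4 only. Experiment 4 gave the lowest value of the 3 for 33 of the 58 P450 genes, with a P450 median of -0.12, and for 4711 of the 10183 features, with a median of -0.014 over all of them.

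**Figure D3:**
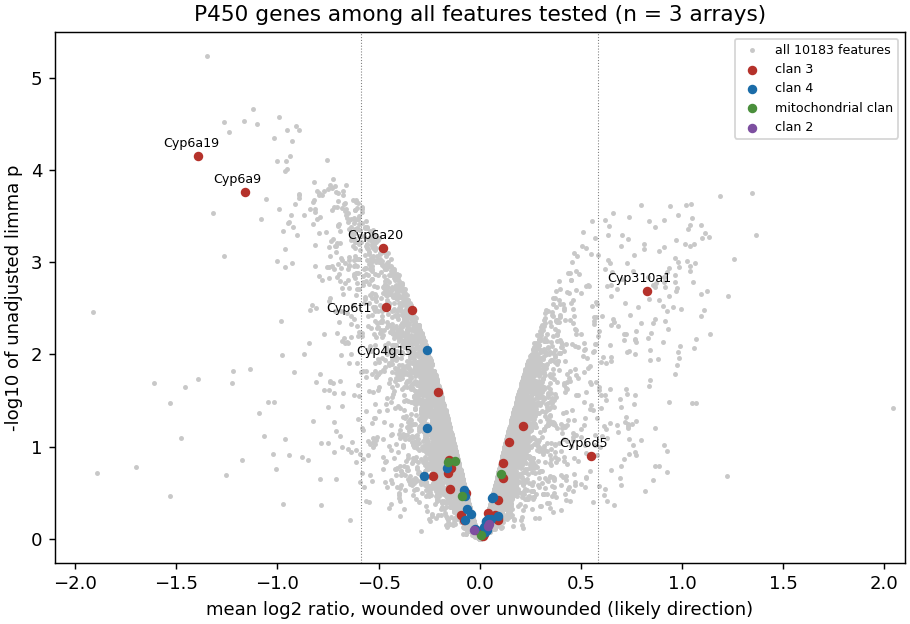
Mean log2 ratio (x axis, likely direction) against -log10 of the unadjusted limma p (y axis) for all 10183 features in grey and the 58 P450 genes coloured by clan; dotted lines mark a 1.5-fold change. Cyp6a19 and Cyp6a9 are the P450 genes called lower, and Cyp310a1 lies just short of the call on the right.

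Clan 4, with 18 Cyp4 genes and 3 of single families, had 0 called genes, against 2.33% of all features. Of its 21 genes 1 had an unadjusted limma p under 0.05, against 2543 of all 10183 features. That gene was Cyp4g15, at -0.24, -0.29 and -0.25, or -0.26 ± 0.03 (limma adjusted p = 0.0946), a small shift that hardly varied between arrays. Cyp4g1, its relative that makes cuticular hydrocarbons in oenocytes, had 0.03 ± 0.16. Cyp4d20 had the lowest mean of the clan (-0.28 ± 0.48), and its probes disagreed, with 0.04 ± 0.10 for one and -0.59 ± 0.88 for the other. The probes of Cyp4s3, a clone and its new amplification, also disagreed, at -0.45 ± 0.31 and 0.12 ± 0.12, so that no direction can be read for this gene. Cyp4p1, highest of the clan at 0.09 ± 0.37, had 0.13, -0.30 and 0.44. Cyp4p3 had -0.26 ± 0.24. The other Cyp4 genes lay between -0.08 and 0.07, among them Cyp4d21, a male-enriched gene linked to courtship (0.07 ± 0.07), and Cyp311a1, Cyp313a5 and Cyp318a1 between -0.06 and 0.03.

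The 5 mitochondrial members were near 0. Cyp49a1 had -0.05, -0.05 and -0.36 (-0.15 ± 0.18), with probe means of -0.030 and -0.28. The neighbours Cyp12a4, linked to lufenuron resistance, and Cyp12a5 had -0.12 ± 0.09 and 0.0076 ± 0.11, and Cyp12c1 had -0.09 ± 0.15. Cyp301a1, needed for the adult cuticle, was highest at 0.11 ± 0.10. A probe shared by Cyp12d1-d and Cyp12d1-p, which cannot be told apart here, had 0.05 ± 0.12.

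For ecdysone, 5 genes of synthesis and turnover were tested of 11 in the list. Spo, a P450 of the early steps, rose: it had 0.89, 0.50 and 0.57, or 0.65 ± 0.20 (1.57-fold higher; 95% interval 0.40 to 0.91; limma adjusted p = 0.0427). Phantom, which hydroxylates the steroid side chain, had 0.79, 0.20 and 0.71, or 0.56 ± 0.32 (1.48-fold; limma adjusted p = 0.0955), and was not called. Both were above 0 on each array. All 5 genes were lowest in experiment 4, which also holds for 33 of the 58 P450 genes and 4711 of all features and so is not particular to them. Shd, which turns ecdysone into its active form, had 0.17, -0.25 and 0.09, or 0.0032 ± 0.22. Cyp18a1, a clan 2 member that inactivates the hormone, had 0.21, -0.27 and 0.18, or 0.04 ± 0.27, and the glutathione transferase GstE14, which the prothoracic gland needs, had -0.031 ± 0.37. The 1 call among these 5 genes is set against 0.648% of features called higher. The median of the 5 was 0.04, and the medians per array were 0.21, -0.25 and 0.37. The other tested clan 2 members, Cyp304a1 and Cyp305a1, had 0.04 ± 0.24 and -0.030 ± 0.27. No probe is named for dib, sad, spok, nvd, sro or Cyp6t3 in the annotation used here.

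Heme, which every P450 holds, is made by a short pathway. Of 8 tested genes of heme synthesis, 1 fell, 0 rose and 7 were not called, where 1.68% of all features were called lower. FeCH, the ferrochelatase that puts iron into the ring, fell, with -0.53, -0.76 and -0.60, or -0.63 ± 0.12 (1.55-fold lower; limma adjusted p = 0.0367). Urod had -0.38, -0.36 and -0.41 (limma adjusted p = 0.0475), and at 1.31-fold lower it missed the minimum fold. Pbgs, the second enzyme of the pathway, had -0.34, -0.61 and -0.42 (limma adjusted p = 0.0553). Alas, which starts it, had -0.26 ± 0.18 and Coprox -0.21 ± 0.02. These 5 genes were below 0 on all 3 arrays, while Ppox (0.12 ± 0.01) was above 0 on all 3 and Uros1 and Uros2 changed sign between arrays. Over all features, 2547 of 10183 were below 0 on all 3 arrays. The 1 call among the 8 heme genes is no result about the list, and a shift of the list was not tested. The list's median was -0.24, beside 0.0014 over all features.

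Of 4 tested electron donors, Fdx2 fell and 3 were not called, against 1.68% of all features called lower. A single call in so short a list is no result about the list. Fdx2, a mitochondrial ferredoxin, had -0.40, -0.60 and -0.82, or -0.61 ± 0.21 (1.52-fold lower; limma adjusted p = 0.0492), barely past the minimum fold. Its call was lost with arrays centred on the median, with array weights, with features on at least 2 arrays and with either of its probes on its own, at means of -0.61, -0.56, -0.61, -0.54 and -0.68. The other ferredoxin, Fdx1, had -0.15 ± 0.05, Cyt-b5 -0.17 ± 0.09 and its reductase Cyt-b5-r 0.10 ± 0.20. Cpr and dare have no probe named for them here.

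Of 11 tested receptors and regulators of P450 genes, 1 was called lower, against 1.68% of all features. Hr96, a nuclear receptor of the xenobiotic response, fell, with -0.57, -0.95 and -0.56, or -0.69 ± 0.23 (1.62-fold lower; limma adjusted p = 0.0431). For the cnc pathway, which switches on detoxification genes, the inhibitor Keap1 had 0.40, 0.30 and 0.50 (limma adjusted p = 0.0584). Usp, the partner of the ecdysone receptor, had -0.20 ± 0.03, and tgo, a partner of bHLH-PAS factors, 0.21 ± 0.09 (limma adjusted p of 0.145 and 0.164). The other 7 lay between -0.28 and 0.12, 0 of them called.

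**Figure D4:**
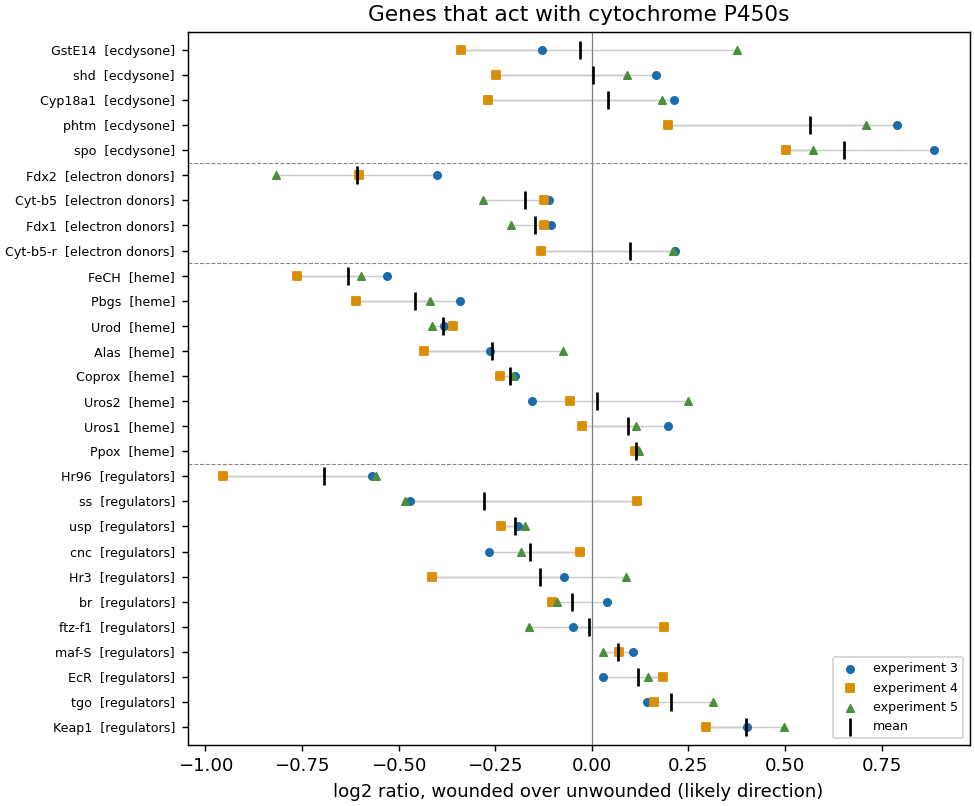
Log2 ratio of wounded over unwounded (x axis, likely direction) for the tested genes of ecdysone synthesis and turnover, electron supply, heme synthesis and P450 regulation, with 1 symbol per experiment and a bar at the mean. Spo and phantom (phtm) lie above 0 on all arrays, and FeCH, Pbgs, Urod, Alas and Coprox below 0.

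The clones behind the probes came from libraries of several tissues, given by the clone name. Of 25 P450 probes from embryo libraries, 5 had means of at least 0.3 in size (20.0%), against 788 of all 5239 embryo probes, and of 6 from a cell line 2 did (33.3% against 20.2%). Of 29 P450 probes from adult head libraries 2 did (6.90% against 16.8%). Cyp6a19 and Cyp310a1 are embryo clones and Cyp6a9 and Cyp6a20 cell line clones. These shares are a description and were not tested.

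Tissues in which P450s are abundant later in life gave no called marker. Of 8 tested markers of fat body, gut and tubule 0 were called in limma, against 2.33% of all features. An unadjusted p under 0.05 was found for 2 of the 8 and for 2543 of all 10183 features. These counts are no result about the list. The medians of the 8 were -0.11, -0.021 and -0.08 on the 3 arrays. Their means ran from -0.68 to 0.20, with 6 below 0 and 2 above, and the lowest was Fbp1 (-0.68 ± 0.88).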

How the data were processed

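The deposited table holds 12144 probes and, per the study's methods, log2 ratios that the authors made from GenePix spot intensities: spots near background, dim or marked as questionable were removed, and loess was applied within arrays. Loess sets most ratios near 0, so a shift shared by most transcripts would not show. Intensities were not used here, and precision is set by having 3 arrays. Empty cells numbered 96, 269 and 148 in experiments 3, 4 and 5.

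Probes were named through the platform annotation, updated to the RefSeq Release 6 gene table, which was used for names and gene order only. A single symbol was found for 9917 probes, several for 625 and none for 1442; 160 control spots were left out. Probes of one gene were averaged, and features with a value on all 3 arrays (10183) were tested in limma 3.58.1 (R 4.3.3), with the mean against 0, two-sided. The members and lists were chosen with earlier results of these data known. By rule the text names called P450 genes, those of at least 0.3 in size or with an unadjusted p under 0.05, the highest and lowest of each family with 3 or more tested genes, Cyp6a genes, genes with several probes, the tested ecdysone genes and the 4 genes of smallest p in each other list. Other genes were named for a known role or as neighbours, after their values were seen. Protein identity between neighbours was not computed here. Alternatives were other scalings, array weights, features on 2 or more arrays, single probes, other thresholds, each array left out and the opposite sign. Clans were assigned by family number.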

Additional observations from a re-analysis of the deposited data

How the results depend on the processing

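The calls depended on the settings. The 2 P450 calls became 0 with arrays scaled to the same spread, when limma called 0 of all features while 2552 features and 8 P450 genes had an unadjusted p under 0.05, and 0 in the test against a 1.5-fold change (118 features and 2 P450 genes with p under 0.05); the cause was not tested. Leaving out 1 array gave 0 to 0 calls, among P450 genes and among all features, where 1473 to 2446 features and 9 to 12 P450 genes had an unadjusted p under 0.05; fewer arrays enter these fits. Array weights, no minimum fold and an adjusted p under 0.10 each called 3 P450 genes, and the other settings 2. With the opposite sign, 2 were called, 0 of them lower, and 0 of 25 named P450 genes kept their direction. The P450 median stayed between -0.06 and 0.013 when 1 array was left out. Of 25 named P450 genes 21 to 24 kept their direction when 1 array was left out, and 23 with each probe on its own; Cyp6a19 and Cyp6a9 stayed below 0 in each of these fits. FeCH, Hr96, spo, Fdx2, Cyp6a19 and Cyp6a9 each lost the call with scaled arrays, in the test against a 1.5-fold change and with any 1 array left out. Each ratio already sets wounded against unwounded RNA of the same experiment, so the reported fit is itself paired.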
